A study of Mus musculus with 168 samples.

Results

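The 37 mitosis genes described here code for proteins with which a cell enters and completes division. The genes, like the other gene lists below, were chosen by name with earlier results of these data known. The 37 genes were compared across single cells of 3 brain regions of old mice. All 37 genes were found among the 42405 gene symbols of the table. They were described by their level, by the share of cells in which they reached 1 TPM (a length-normalized share of the cell's transcripts), and by the number detected in each cell. In neural stem cells they were also set against Pcna and Mcm2, genes of DNA replication. A gene counts as detected at 1 TPM or more.

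In a dividing cell, cyclin-dependent kinase 1 bound to B-type cyclins drives entry into mitosis. Condensin then compacts the chromosomes, kinetochores attach them to the spindle, a checkpoint holds the cell until all are attached, and the anaphase promoting complex releases that hold. Many of the transcripts build up in G2 and M phase, after DNA has been copied, and are low in cells outside the cycle. In the subventricular zone (SVZ), a germinal layer lining the lateral ventricle in the adult brain, most neural stem cells rest, and activated stem cells and their progeny divide. Astrocytes of the striatum and cortex of healthy adult brain rarely divide.

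Smart-seq2, which covers the full length of transcripts, was used to sequence the RNA of single cells. All mice were male C57BL/6. The SVZ gave 68 cells named ogp and 65 named ogp2, all labelled old neural stem cells, that had been sorted as GLAST+ CD133+ and negative for CD45 and O4, and pooled from 4 mice. Their age is 23 months in the labels and 22 in the protocol. Astrocytes sorted as GLAST+ and negative for CD45 and O4 came from mice of 25 months, with 3 to 4 animals pooled, and gave 13 cells of striatum and 4 of cortex. No CD133 gate is named for the astrocytes. Cells were picked by hand after sorting. No label ties a cell to an animal, so each region is 1 sample, no test between regions was possible, and the intervals given for shares of cells are exact Clopper-Pearson 95% intervals that cover counting error only.

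TPM values keep no read counts, so the depth of each cell is unknown. SVZ cells had 1937 to 7986 genes at 1 TPM or more (median 3479), striatum cells 2860 to 3944 and cortex cells 3033 to 3766. Slc1a3, the gene of the sorted antigen GLAST, was detected in all 150 cells. Prom1, the gene of CD133, was detected in 14 SVZ cells, and Ptprc, the gene of CD45, in 0 cells. In 5 SVZ columns the listed genes sum to 66189 to 309864 TPM in place of about 1000000, and what they lack is not stated. Of these 5 cells only 1 had more than 3 of the 37 genes (9 detected). No columns were identical. Doublets were not called, and their part in the results was not tested.

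The mitosis genes were concentrated in a few SVZ cells. All 37 were detected in 8 cells, and 36 in 1 more (ogp cell 20, in which Ccnb2 was at 0 TPM). A further 4 cells had 9, 11, 16 and 17 of them. The remaining 120 cells had 6 or fewer: 42 cells had none, 38 had 1, 22 had 2 and 13 had 3. The set was thus nearly complete or nearly absent in most cells, and only 4 cells lay between. The names used below, full for 19 or more of the 37 genes, partial for 7 to 18 and low for 6 or fewer, describe ranges of this count. The limits of 7 and 6 were set after the counts were seen. No cell had 18, 19 or 20 genes: the counts nearest to the limit of 19 were 17 and 36.

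**Figure D1:**
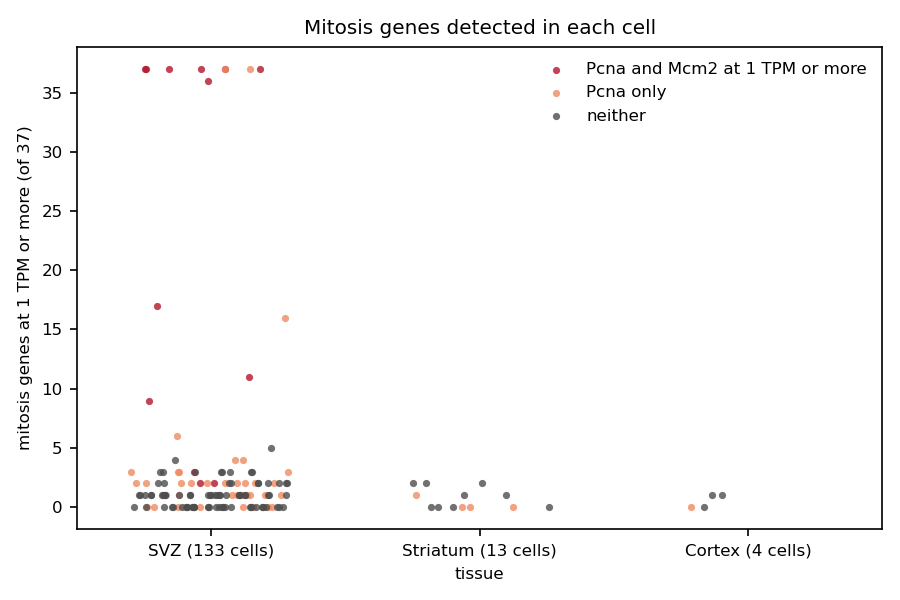
Each point is 1 cell, placed by its region and by the number of the 37 mitosis genes at 1 TPM or more, and coloured by detection of Pcna and Mcm2. Points are spread sideways at random. The 9 cells with 36 or 37 genes are all from the SVZ, 4 SVZ cells lie between 9 and 17, and no astrocyte has more than 2.

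In the 9 full cells the 37 genes together made up 0.877% to 3.31% of all TPM (median 2.34%). Their summed level was 33131, 31687, 26222, 25415, 23424, 20810, 16042, 11016 and 8773 TPM. In the partial cells the sums were 1940, 1328, 699 and 557 TPM, and in the low cells they ran from 0.240 to 1262 TPM (median 4.38). The full cells did not overlap with either other range, but the ranges were formed from the same genes, so this only describes how they were chosen. Of the TPM that the 37 genes had in all SVZ cells, 92.6% lay in the 9 full cells. For 27 genes that share was 90% or more. All 37 genes had an SD over the SVZ cells above their mean, so the means below summarise a few high cells and many near 0.

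**Figure D2:**
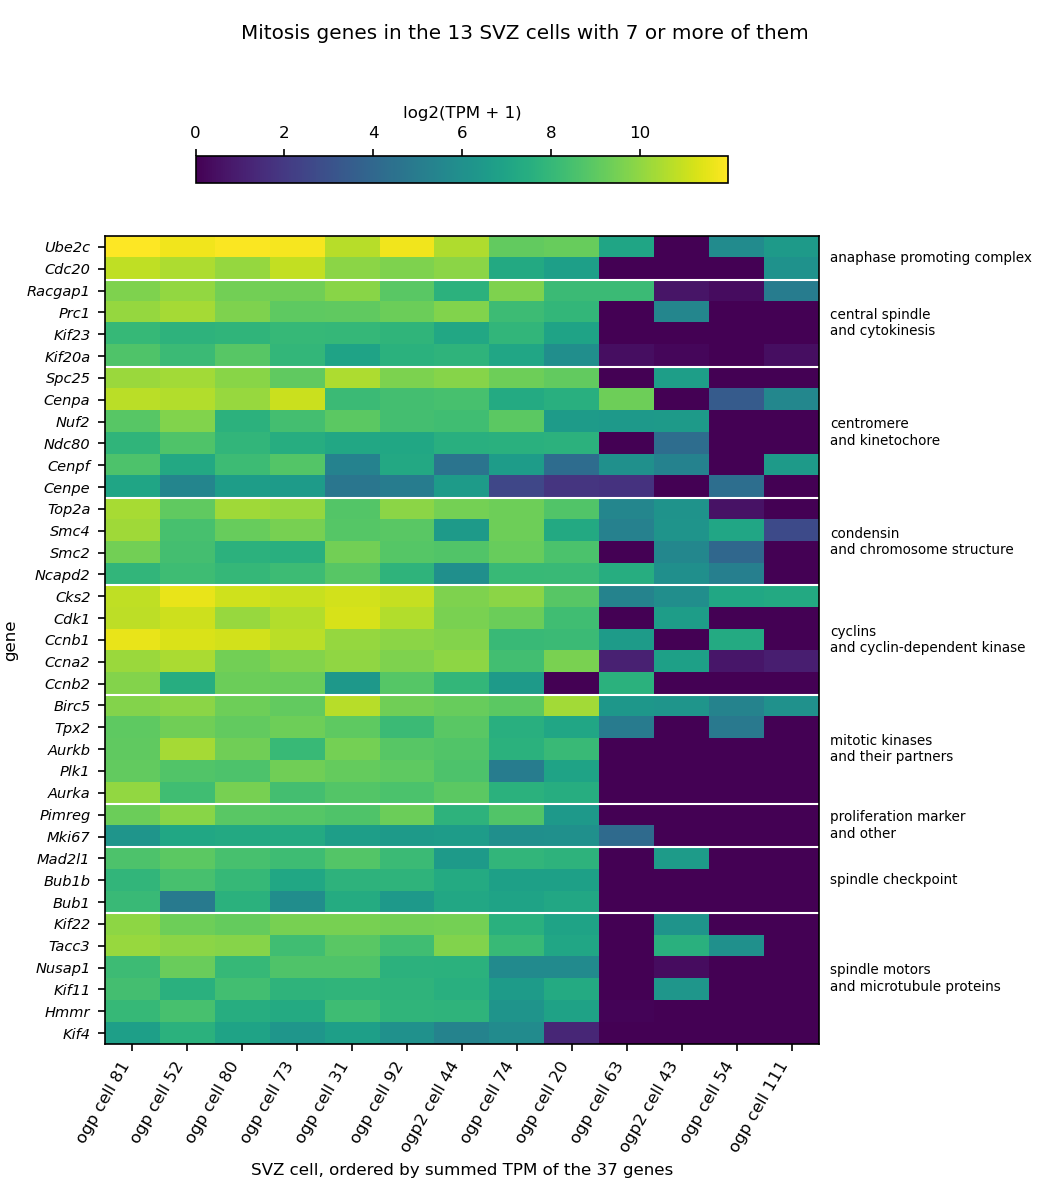
Level of each mitosis gene, as log2(TPM + 1), in the 13 SVZ cells with 7 or more of them, with genes grouped by role and cells ordered by their summed level. The 9 cells on the left are filled for nearly every gene, and the 4 on the right hold 9 to 17 genes each.

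Of the cyclins and their kinase, Cks2, Ccnb1 and Cdk1 had the highest SVZ means of the set after Ube2c, while Ccnb2 averaged 27.4 TPM. Ccnb1, cyclin B1 (ENSMUSG00000041431, chromosome 13, 100778650 to 100786570, GRCm38), averaged 100.99 ± 446 TPM (SD over all SVZ cells) and was detected in 12 SVZ cells, 9.02% (4.75% to 15.2%). Its values in the 9 full cells, in the order of the sums above, were 3101, 2568, 2324, 1706, 1085, 955, 867.5, 279 and 284 TPM. Cdk1, the kinase itself (ENSMUSG00000019942, chromosome 10, 69335146 to 69352938), ranged from 315 through a median of 1536 to 2450 TPM in the full cells, and averaged 93.4 ± 387 TPM in the SVZ, where 13 cells had it. Only 3 of its detections were in low cells, none above 1.59 TPM. Ccna2, cyclin A2, which acts in both S phase and G2, ranged from 333 to 1431 TPM in the full cells (median 860). It was also found in 9 low cells, in 1 of them at 203 TPM. Cks2, a small subunit of the kinase complex, reached 468 to 3090 TPM (median 1986) and was 1 of 3 genes, with Birc5 and Smc4, that all 4 partial cells had. Ccnb2, cyclin B2, was the only gene missing from a full cell, and spanned 0 to 856 TPM there.

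Ube2c and Cdc20 act with the anaphase promoting complex, as its ubiquitin-conjugating enzyme and its activator. Ube2c (ENSMUSG00000001403, chromosome 2, 164769898 to 164778822) had the highest mean of the set, 173 ± 729 TPM over the SVZ cells. In the full cells it ranged from 545 to 4069 TPM, with a median of 3390. Cdc20 ranged from 108.01 to 1923 TPM (median 946) in the full cells, and was above 1.07 TPM in no low cell. Both genes overlap an exon of a gene on the opposite strand in the annotation (Tnnc2 and Elovl1), and the sources used here do not say that counting used strand.

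Among the mitotic kinases, Plk1, which acts from mitotic entry to cytokinesis, was detected in 10 SVZ cells. Its values in the full cells were 549, 422, 397, 662, 562, 520, 396, 32.1 and 122.4 TPM, in the same order. The last 2 of these cells, with the smallest sums of the set, stood below the other 7. Aurkb, the kinase of the chromosomal passenger complex, was detected in the 9 full cells and in no other cell of any region, at 200 to 1331 TPM (median 469). Birc5, another member of that complex, was at 498 to 1648 TPM in the full cells, and at 39.9 to 80.5 TPM in the partial cells. Aurka, a centrosome kinase, and Tpx2, which activates it, had medians of 380 and 513 TPM in the full cells.

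The 6 centromere and kinetochore genes spread over a wide range of levels. Cenpa, the histone H3 variant that marks centromeres, averaged 66.2 ± 290 TPM over SVZ cells. Its values in the full cells were 1699, 1550, 1141, 2069, 284, 339, 362, 158 and 186 TPM. The first 4 cells were thus all above the other 5. Cenpe, a kinetochore motor, had the lowest mean of the set (4.14 TPM) and ranged from 2.59 to 129.5 TPM. Cenpf, also of the kinetochore, ranged from 18.02 to 436 TPM. Spc25, Ndc80 and Nuf2 are subunits of the Ndc80 complex, which binds microtubules. Spc25 and Ndc80 were each detected in 11 cells, but Nuf2 was in 22, of which 11 were low cells with up to 132.96 TPM. The checkpoint kinase Bub1 and the related Bub1b were detected in the full cells only, at 28.4 to 279 and 110.88 to 360 TPM. Mad2l1, also of the checkpoint, was detected in 17 SVZ cells, of which 7 were low cells. Its highest value of all, 894 TPM, was in a low cell, above the 92.7 to 500 TPM of the full cells.

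Mki67 (ENSMUSG00000031004, chromosome 7, 135689784 to 135716361), whose protein coats mitotic chromosomes and is the usual stain for cycling cells, was detected in 11 SVZ cells at a low level. It ranged from 62.7 to 161 TPM in the full cells (median 97.8), was at 16.6 TPM in 1 partial cell and at 4.71 TPM in 1 low cell. Top2a, the topoisomerase that untangles sister DNA, was higher, at 431 to 1379 TPM in the full cells (median 717), and was detected in 15 SVZ cells. The condensin subunits were among the most widely detected. Smc4 was detected in 25 SVZ cells, Ncapd2 in 25 and Smc2 in 24, and 12, 13 and 13 of these were low cells. Smc4 ranged from 90.9 to 1250 TPM in the full cells (1249.6 at most) and reached 544 TPM in a low cell. Smc2 ranged from 189 to 691 TPM in the full cells and reached 305 TPM in a low cell. Only 66.2%, 57.9% and 71.5% of the SVZ TPM of Smc4, Ncapd2 and Smc2 lay in full cells, and the smallest share of any member was that of Mad2l1, 55.8%.

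Spindle motors and genes of cytokinesis were mostly high in the full cells. Kif23, a motor of the central spindle, was detected in the 9 full cells alone, at 123.12 to 265 TPM. Kif11, the motor that separates spindle poles, was at 95.95 to 336 TPM there and in 1 partial cell. Prc1, which bundles the central spindle, ranged from 244 to 1329 TPM in the full cells. The chromosome-bound motors Kif22 and Kif4 ranged from 124.47 to 983 and from 1.48 to 203 TPM there. Kif20a, a motor of cytokinesis, ranged from 59.5 to 473 TPM and was also in 7 low cells. The spindle proteins Tacc3, Nusap1 and Hmmr had medians of 489, 261 and 219 TPM in the full cells. Pimreg, another mitotic gene, had a median of 457 TPM there and was detected in no other SVZ cell. Racgap1, a partner of Kif23 in the central spindle, was detected most widely, in 30 SVZ cells (22.6%, 15.8% to 30.6%). Of these, 19 were low cells, with at most 77.6 TPM, while the full cells had 209 to 1050.4 TPM. Another 89 SVZ cells had Racgap1 above 0 and below 1 TPM, and Hmmr, Birc5, Top2a and Cenpf also had such values in 65, 56, 51 and 49 cells.

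Across the 37 genes, 8 were detected in no low cell (Bub1, Bub1b, Aurkb, Tpx2, Cenpe, Pimreg, Kif23 and Kif11). Between 1 and 5 low cells had each of 21 genes, and 8 genes were in more. These 8 were Racgap1, Ncapd2, Smc2, Smc4, Nuf2, Ccna2, Mad2l1 and Kif20a. As a description of likeness, the level of each gene across the SVZ cells, as log2(TPM + 1), was correlated with the mean of the other 36. Pearson's r was lowest for Ncapd2 (0.68), Smc2 (0.71), Smc4 (0.73), Mad2l1 (0.75) and Nuf2 (0.75), and was 0.97 for Mki67. The points share the 9 full cells and their larger number of detected genes.

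**Figure D3:**
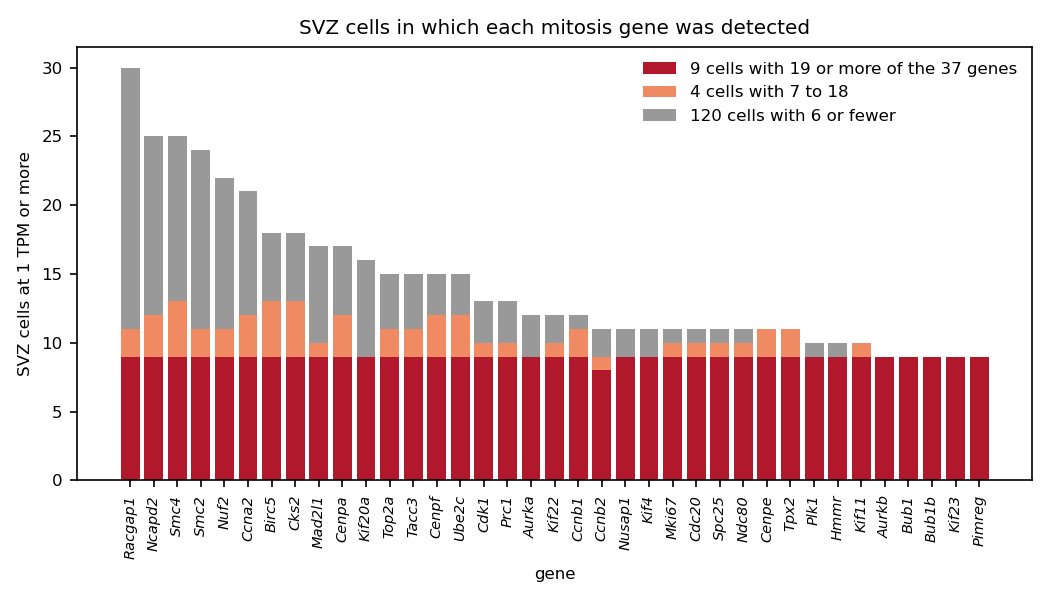
Number of SVZ cells with each mitosis gene at 1 TPM or more, split into the 9 full cells, the 4 partial cells and the 120 low cells. Bars start at 0. The full cells give nearly the same count for all genes, and the low cells add 0 for 8 genes and 19 for Racgap1.

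Splitting the SVZ cells by Pcna and Mcm2 uses no gene of the mitosis list. Pcna, the sliding clamp of DNA polymerase, was detected in 54 cells, and Mcm2, a subunit of the replicative helicase, in 13. All 13 cells with Mcm2 also had Pcna: 0 cells had Mcm2 alone (upper bound 2.74%). Cells with both genes had 2 to 37 mitosis genes (median 36). The 41 cells with Pcna alone had 0 to 37 (median 1), and the 79 cells with neither had 0 to 5 (median 1). At least 10 mitosis genes were detected in 9 of the 13 cells with both (69.2%, 38.6% to 90.9%), in 3 of the 41 with Pcna alone (7.32%, 1.54% to 19.9%) and in 0 of the 79 with neither (upper bound 4.56%). With any value above 0 TPM counted as detected, 3 SVZ cells had 10 or more mitosis genes and neither Pcna nor Mcm2, and the SVZ cells with 10 or more numbered 19 in place of 12. The interval of the first class does not overlap with the other intervals, which overlap with each other. The intervals cover counting error among cells of a single sample, so this is a description and not a test. The classes also differed in genes detected per cell, with medians of 6518, 3754 and 3186, and the part of that difference in these shares was not tested.

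Gene by gene, all 37 mitosis genes were at least 4-fold higher, as log2 of mean TPM + 1, in cells with both genes than in cells with neither, and the median difference was 6.66 on the log2 scale. Over all genes with 10 TPM or more in either class, 13.2% were at least 4-fold higher, with a median difference of 0.15. Of the mitosis genes, only Mad2l1, Smc2 and Smc4 averaged 10 TPM or more in cells with neither. The others passed the filter through the higher class alone, so these shares are a description. Of the 13 cells with both, 7 were full. Cdk1 averaged 652 ± 797 TPM in cells with both, 96.1 ± 431 TPM in cells with Pcna alone and 0.0487 ± 0.252 TPM in cells with neither. Ccnb1 averaged 589, 141 and 0.0704 TPM in the same order. Racgap1 was detected in 9, 8 and 13 cells of these classes, so most of its scattered detections were in cells without Pcna or with Pcna alone. For Pcna alone against neither, 33 genes reached 10 TPM in a class and 30 of them were at least 4-fold higher, where 4.77% of all genes were. Apart from Mad2l1, Smc2 and Smc4, the 33 passed that filter through the higher class alone. Of the 41 cells with Pcna alone, 2 were full and 1 was partial.

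**Figure D4:**
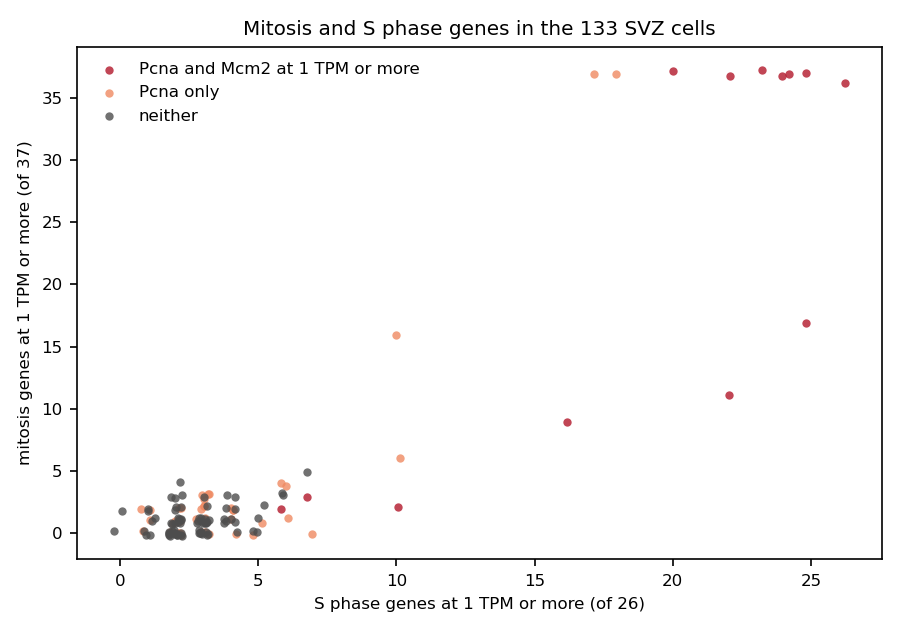
Each point is 1 SVZ cell, placed by the number of 26 S phase genes and of 37 mitosis genes at 1 TPM or more, and coloured by detection of Pcna and Mcm2. Points are spread at random by less than 1 gene on both axes. Full cells have 17 to 26 S phase genes, 3 partial cells have 16 to 25 with 9 to 17 mitosis genes, and low cells have at most 10.

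S phase genes were also counted from a list of 26, which does not hold Pcna. The full cells had 17 to 26 of them (median 23), the partial cells 10 to 25 and the low cells 0 to 10 (median 3). By class, the median was 22 with Pcna and Mcm2, 3 with Pcna alone and 2 with neither. Cells with Pcna alone ranged from 1 to 18, and their phase was not tested. Rrm2, a subunit of ribonucleotide reductase, averaged 715 TPM in the full cells, 237 TPM in the partial cells and 2.7 TPM in the low cells, where 2 of 120 had it. Mcm6, another helicase subunit, averaged 229, 221 and 5.2 TPM. The full cells therefore held genes of both phases, and no full cell lacked Pcna. Their Pcna levels ran from 197 to 1415 TPM (median 560).

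Mcm2 was not detected in 2 of the 9 full cells (ogp cells 81 and 52), at 0 TPM. These 2 had the largest summed mitosis levels, 33131 and 31687 TPM, the lowest Pcna levels of the full cells, 197 and 216 TPM, and the fewest S phase genes, 18 and 17. Their ratio of summed mitosis TPM to summed S phase TPM was 13.1 and 18.1. In the full cells with Mcm2 the ratio ran from 1.28 to 11.5. The highest of these, 11.5, belonged to ogp cell 80, in which Mcm2 was at 14.5 TPM, the lowest of the 7. At the other end, ogp cells 20 and 74 had ratios of 1.28 and 2.65, Pcna at 1327 and 1415 TPM and Mcm2 at 347 and 205 TPM. The cells between these ends did not keep to such an order. In ogp2 cell 44, with Mcm2 at 50.9 TPM and Pcna at 274 TPM, the ratio was 5.39. In ogp cell 73, with Mcm2 at 169 TPM and Pcna at 644 TPM, the ratio was 8.50. These are 9 cells of 1 sample, and no relation was tested.

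Single genes differed between the cells at these ends to different degrees. In both cells without Mcm2, Ccnb1 (2568 and 3101 TPM), Ccna2 (1162 and 1431 TPM), Tacc3 (944 and 1136 TPM) and Prc1 (1081 and 1329 TPM) exceeded their values in all 7 cells with it. These 4 of 37 genes compare with 3.58% of all genes tested in the full cells. A further count, of genes above the median of the 7 in both cells, gave 25 of 37 genes against 23.1% of all genes. The cells without Mcm2 had the largest sums of these same 37 genes, so the shares are only a description. No mitosis gene was below all 7 in both. In ogp cells 20 and 74, by contrast, Plk1 was at 122.4 and 32.1 TPM and Cdc20 at 108.01 and 156 TPM. Cenpe was at 2.59 and 4.8 TPM there, while Ndc80 was at 209 and 191 TPM (median of the full cells 191). Birc5 was at 1294 TPM in ogp cell 20, but at 498 TPM, its lowest value in the full cells, in ogp cell 74. These 2 cells were singled out after their values were seen.

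**Figure D5:**
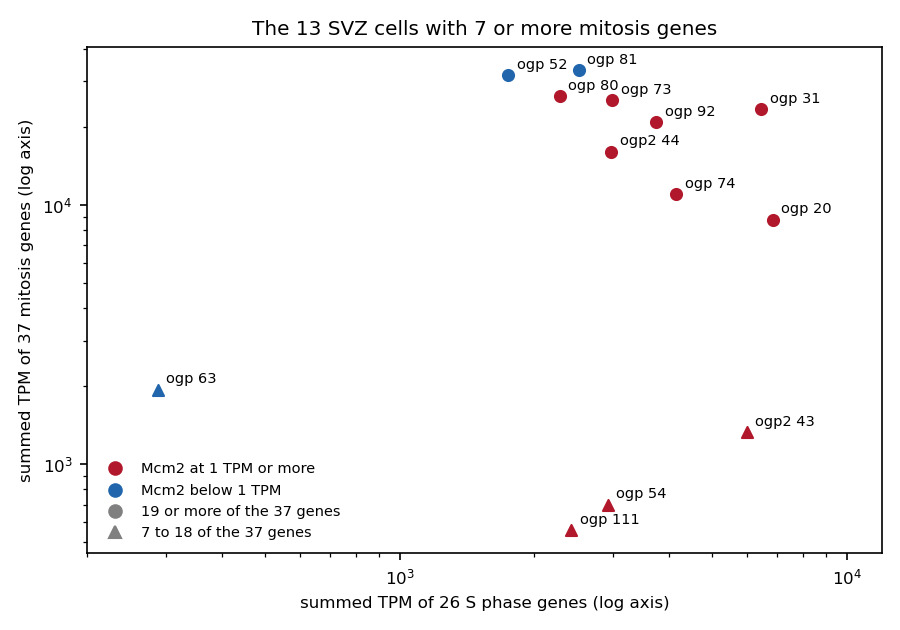
Summed TPM of the 37 mitosis genes against that of the 26 S phase genes in the 13 SVZ cells with 7 or more mitosis genes, both on log axes. The 2 full cells without Mcm2 lie at the top left, ogp cells 20 and 74 have the lowest mitosis sums of the full cells, and 3 partial cells lie below them at a similar S phase level.

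The 4 partial cells were of different makeup. Of these, 3 (ogp2 cell 43, ogp cell 54 and the cell with 9 mitosis genes) had 25, 22 and 16 S phase genes, summed S phase levels of 5989, 2920 and 2423 TPM, and ratios of 0.222, 0.240 and 0.230. Tacc3, a spindle protein, led the mitosis genes of ogp2 cell 43 at 192 TPM, followed by Ccna2 at 110.7 TPM. Ccnb1 led in ogp cell 54 at 158 TPM, and Cks2 in the cell with 9 mitosis genes, 1 of the 5 with low sums, at 153 TPM. The fourth, ogp cell 63, had 10 S phase genes with a sum of 287 TPM, no Mcm2 and a ratio of 6.75. Cenpa was its highest mitosis gene at 641 TPM, followed by Racgap1 at 291 TPM and Ccnb2 at 200.3 TPM, but Cdk1 and Plk1 were below 1 TPM. Across the 4 cells 11 genes were in none, among them Plk1, Aurka, Aurkb, Bub1 and Nusap1.

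Other genes of the same stage, from a list also chosen with earlier results of these data known, were high in the same cells. Of 40 further G2 and M genes, not members of it, the full cells had 29 to 40 (median 40), the partial cells 6 to 22 and the low cells 0 to 7 (median 3). Cdca8, a subunit of the chromosomal passenger complex, averaged 719 TPM in the full cells and was detected in 0 low cells. Pbk, a mitotic kinase, averaged 1237 TPM in the full cells and was in 1 low cell. Pttg1, securin, did not follow the pattern: it averaged 121.5 TPM in the full cells and 289.7 TPM in the low cells, where 84 of 120 had it. Across the SVZ cells, the genes outside the set whose level was most like its mean were Ckap2l (r = 0.98), Cdca2 (0.98), Ncapg (0.97), Melk (0.97), Mxd3 (0.97), Kif15, Cdca8, Cdca5, Ncaph, Gtse1, Foxm1, Sgo1, Sgo2a, Fignl1 and Mcm10 (0.96). None was detected in an astrocyte.

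Other measures of the full cells were compared with the rest. They had 6220 to 7986 genes at 1 TPM or more (median 6885), the partial cells 6051 to 6518 and the low cells 1937 to 6285 (median 3362.5). Ribosomal protein genes made up 5.51% to 12.99% of TPM in the full cells, 8.18% to 14.2% in the partial cells and 0.659% to 14.8% in the low cells (median 1.75%). The 16 markers of quiescent stem cells and astrocytes summed to 1571 to 11520 TPM in full cells (11519.6 at most), and to 7084 to 150367 TPM (median 82697) in low cells. The 12 markers of activated stem cells and transit amplifying cells summed to 3485 to 7968 TPM in full cells, 5610 to 10175 TPM in partial cells and 38.3 to 10987 TPM (median 914) in low cells, so these ranges overlap. Of 11 neuroblast markers, 1 to 5 were detected in each full cell and the sum was 65.9 to 821 TPM, against 0 to 452 TPM in low cells. Dcx was in 2 of the 9 full cells and Sox11 in all 9. Markers of microglia (8 genes), endothelium (7 genes) and ependyma (8 genes) were detected in 0 full cells. Of 10 oligodendrocyte lineage markers, 0 to 4 were detected in each full cell (sum 0 to 764 TPM, and 0 to 6762 TPM in low cells), and Olig1 and Cnp were each in 6 of the 9. Of 6 neuron markers 0 to 2 were detected in each (sum 0 to 62.1 TPM), and of 6 mural markers only Pdgfrb, in 1 full cell. The part of gene number and of cell type in the mitosis levels was not tested.

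Astrocytes carried very few of these genes, and so did the 120 low SVZ cells, which were grouped for that. Of these low cells, 65% (55.8% to 73.5%) had at least 1 gene. In striatum, 7 of 13 cells had none of the 37, 3 had 1 and 3 had 2. In cortex 2 of 4 had none and 2 had 1. At least 1 gene was detected in 46.2% of striatum cells (19.2% to 74.9%), in 50% of cortex cells (6.76% to 93.2%) and in 68.4% of SVZ cells (59.8% to 76.2%). These intervals overlap, but they cover counting error only and are no test between regions. With any value above 0 TPM counted, 0% of SVZ and of striatum cells had none. Cells with 10 or more of the genes made up 9.02% of SVZ cells (4.75% to 15.2%), 0 of 13 striatum cells (upper bound 24.7%) and 0 of 4 cortex cells (upper bound 60.2%). No verdict on the regions is drawn from either share. The summed level was 0.510 to 402 TPM in striatum (median 2.12) and 0 to 198 TPM in cortex. In the low SVZ cells its median was 4.38 TPM.

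Of the 37 genes, 30 were below 1 TPM in every astrocyte, and 23 were at exactly 0 in all 17. Of all genes with a mean of 10 TPM or more in the SVZ, 6.30% were below 1 TPM in every astrocyte. Such genes were detected in a median of 41 SVZ cells and the members in 9 to 30, so the shares are not alike in kind and nothing is read from them. The 7 members that reached 1 TPM in an astrocyte were scattered. Mad2l1 was at 378 and 89.1 TPM in 2 striatum cells. Smc2 was at 149 and 15.1 TPM, Ncapd2 at 23.7 TPM, Kif20a at 2.28 and 1.18 TPM, Cenpa at 112.15 TPM and Kif11 at 3.75 TPM, each in striatum. In cortex, 1 cell had Ncapd2 at 198 TPM and another had Smc4 at 2.79 TPM. None of the cyclins, of Cdk1 or of the Aurora and Polo-like kinases reached 1 TPM in an astrocyte. Pcna was detected in 4 striatum cells and 1 cortex cell, and Mcm2 in none.

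By mean level, all 37 genes were lower in striatum than in SVZ cells, 35 of them at least 4-fold, with a median difference of -4.98 on the log2 scale of mean TPM + 1 and no filter on level. Among genes with 10 TPM or more in either group, 31 of 33 members and 15.4% of all 9080 genes were at least 4-fold lower, and the median of all was -0.26. In cortex 36 of 37 were lower and all 36 at least 4-fold, with a median of -5.06. With the level filter these were 32 of 33 members and 36.8% of all 8940 genes. The members that pass this filter do so through the SVZ, so these shares are a description. The exceptions were condensin and checkpoint genes: Mad2l1 differed by -0.09 and Smc2 by -1.65 in striatum, and Ncapd2 was higher by 0.66 in cortex. Mad2l1 was higher in striatum, by 0.01 to 0.37, with group means scaled by their median ratio, with logs averaged over cells, with OGStr cells alone and with ogp2 cells alone, and in the last case Cenpa was higher too, by 0.26. In cortex Ncapd2 was lower without the single cell that had it, so that all 37 were then lower. For genes near 0 in astrocytes these ratios are set by the added 1 TPM. Both comparisons share the SVZ cells, whose means rest on the 9 full cells: over the members with 10 TPM or more in a group, the medians of -5.06 and -5.24 became -0.71 and -0.74 when logs were averaged over cells.

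The meaning of the name series ogp and ogp2 is not given in the labels. At least 10 mitosis genes were detected in 10 ogp cells (14.7%, 7.28% to 25.4%) and 2 ogp2 cells (3.08%, 0.375% to 10.7%). At least 1 gene was detected in 53 and 38 cells of the series, 77.9% and 58.5%. Full cells numbered 8 and 1. The intervals for 10 or more genes overlap, and no test was made.

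Because most of the set is found together in the same cells, the promoters of its genes were read for 2 motifs known from cell cycle genes: the CHR element, read as TTTGAA or TTTAAA, which binds the DREAM and MuvB complexes, and the CCAAT box, which binds NF-Y. RefSeq windows (GRCm38.p6, 250 bases before to 50 after the start) were found for 31 of the 37 genes, and both strands were searched. TTTGAA was present in 22 of 31 windows (70.97%), and in 20.2% of the windows of 27025 genes. TTTAAA was in 8 of 31 (25.8%), against 14.9%. CCAAT was in 25 of 31 (80.6%), against 41.1%. Both a CCAAT and either form of CHR were in 23 of 31 (74.2%), against 12.2% of all genes and 11.5% of 17492 coding genes. TTTAAA reads the same on both strands, and a CCAAT can overlap another on the opposite strand. Near the start, from 60 bases before to 50 after, 22 genes had a CHR form, against 10.5% of all genes. A match is a description of letters, not a bound site.

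The 250 bases before the start are shown for 4 genes, to let the spacing be seen, and these were chosen after the matches were known. Capitals mark the motifs, with CCAAT on the other strand read as ATTGG and TTTGAA as TTCAAA. Cdk1 has 2 TTTGAA, 71 and 15 bases before the start, and 3 CCAAT on the other strand. Cdc20 has TTTGAA 18 bases before, with CCAAT at 53 and 8. Top2a has 6 CCAAT, the nearest 58 bases before the start, TTTGAA at 179 and TTCAAA at 23. Birc5, with no CCAAT in the window, has TTTAAA alone, 220 bases before. Distances are those of the motif's first base as printed.
Cdk1 (chr10:69352913-69353162, minus strand): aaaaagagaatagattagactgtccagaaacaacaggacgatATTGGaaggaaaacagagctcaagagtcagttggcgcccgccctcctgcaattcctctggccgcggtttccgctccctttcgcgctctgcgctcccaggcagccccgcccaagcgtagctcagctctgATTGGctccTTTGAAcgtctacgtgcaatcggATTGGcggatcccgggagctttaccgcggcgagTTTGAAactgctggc
Cdc20 (chr4:118437344-118437593, minus strand): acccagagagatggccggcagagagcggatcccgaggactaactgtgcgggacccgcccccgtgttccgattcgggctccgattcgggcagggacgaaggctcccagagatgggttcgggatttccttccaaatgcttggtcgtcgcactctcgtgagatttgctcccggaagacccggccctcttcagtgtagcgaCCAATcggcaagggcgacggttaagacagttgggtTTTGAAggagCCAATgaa
Top2a (chr11:99024190-99024439, minus strand): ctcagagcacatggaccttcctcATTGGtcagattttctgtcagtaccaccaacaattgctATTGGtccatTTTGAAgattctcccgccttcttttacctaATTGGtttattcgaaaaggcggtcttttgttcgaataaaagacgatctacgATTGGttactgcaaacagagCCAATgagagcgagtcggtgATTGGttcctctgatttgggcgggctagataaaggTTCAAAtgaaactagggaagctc
Birc5 (chr11:117848987-117849236, plus strand): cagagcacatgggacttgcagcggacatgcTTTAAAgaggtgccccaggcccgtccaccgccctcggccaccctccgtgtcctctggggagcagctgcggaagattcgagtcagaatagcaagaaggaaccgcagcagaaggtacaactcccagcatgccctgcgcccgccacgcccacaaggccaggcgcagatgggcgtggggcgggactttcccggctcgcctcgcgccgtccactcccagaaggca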

How the data were processed

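Single-cell libraries of SVZ (133), striatum (13) and cortex (4) cells were used, and 18 population libraries were not analysed here. The values deposited by the authors are TPM: columns total about 1000000 and are decimal. RSEM 1.2.18, STAR 2.4.0g1 and the genome mm10 are named, without roles, per the submitters' processing notes. The annotation is not given in the sources used here. RSEM divides reads among similar sequences, and TPM is relative to the other RNA of a cell.

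All cells were first scaled to total 1000000 TPM. Of 43309 identifiers, 42425 had a symbol. For a shared symbol the identifier of highest mean was used, giving 42405 symbols. Detection meant 1 TPM or more. Regions and classes of cells were compared as log2 of mean TPM + 1, among genes with 10 TPM or more in either group, and a gene was called at 4-fold. With 1 sample a group, no p-value was computed. The comparison was tested on simulated data. Positions are from GENCODE M21 (GRCm38). There, exons of 12 members overlap exons of another gene. The overlap is on the opposite strand for 10, Ccna2 and Kif20a among them, and on the same strand for Ncapd2 and Top2a. Also, 4 pseudogenes are named for a member (Ccnb1, Ccnb2, Kif22 and Kif4). How much of the reads of these members comes from the overlapping genes and pseudogenes was not tested.

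The 37 genes and all lists were chosen with earlier results of these data known. Values were printed for a fixed set of members, for members detected in an astrocyte, for up to 6 genes of each other list with the highest SVZ mean and for the 15 genes most like the set. Other members named were chosen after their values were seen. Alternatives were the pseudocount, the level filter, the limit of detection, the mean of logs, each name series and cells left out. Scripts used Python 3.11.15, pandas 2.3.3, numpy 2.4.6 and scipy 1.17.1.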

Additional observations from a re-analysis of the deposited data

Results flagged for a closer look

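In the 4 cortex cells, 1 cell stood far above the other 3 in the summed level of the 37 mitosis genes, at 198.31 TPM against 0 to 3.14 TPM. Nearly all of that came from Ncapd2, a condensin subunit, at 197.66 TPM in that cell and 0 in the others. In the annotation, exons of Ncapd2 overlap Scarna10, a snoRNA, and Gm28967 on the same strand, and their part in this value was not tested. Smc4, another condensin subunit, was at 2.79 TPM in a different cortex cell and 0 in the others. With 4 cells and many genes compared, such gaps also arise by chance, and a gene seen in a single cell always shows one.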

How the results depend on the processing

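In all, 63 alternative values were computed for 9 results, and 44 stayed within 1.5 times the main value or within its interval. No median changed sign, but the direction of single members did: in striatum 37 of 37 were lower, and 35 or 36 under 4 alternatives, with Mad2l1 higher in each. The cause of the other 19 was not tested, except that the added TPM sets a ratio against a region near 0. The median log2 ratio of the members past the level filter, -5.06 in striatum and -5.24 in cortex against SVZ, was -2.08 and -2.27 with 10 TPM added, -8.26 and -8.34 with 0.1 TPM added, and -0.71 and -0.74 as a mean of logs over cells. It was -5.79 and -5.85 with ogp cells alone, and -3.87 and -3.96 with ogp2 cells alone. With any 1 cortex cell left out, the cortex value was -5.29 to -5.24. The share of SVZ cells with 10 or more members, 9.02%, was 3.08% in ogp2 cells alone, as was that of cells which also had Pcna or Mcm2. With any value above 0 counted the first share was 14.3%, and 2.26% of SVZ cells had 10 or more members with neither Pcna nor Mcm2, in place of 0. The share of SVZ cells with no member, 31.6%, was 22.1% in ogp cells, 41.5% in ogp2 cells, 52.6% at a limit of 10 TPM and 0% with any value above 0 counted. At that last setting the share of striatum cells with no member, 53.8%, was also 0%. The median number of members in cells with neither Pcna nor Mcm2 was 1, and was 5 with any value above 0 counted and 0 at 10 TPM. Leaving out the 5 SVZ columns with low sums, an alternative chosen after seeing the data, moved none of the 8 results it bears on past those limits. No paired analysis was possible because each region is 1 pooled sample and no animal is named. Depth is unknown for TPM, so an undetected gene may be below the reach of a library.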
